A study of Mus musculus with 4 samples.

Results

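The 9 chemokine genes described here, Ccl1, Ccl3, Ccl4, Ccl5, Ccl17, Ccl22, Xcl1, Cxcl9 and Cxcl10, were found by symbol among 31748 genes in 4 bulk RNA-seq libraries of mouse spleen cells, and all 9 had enough reads to be tested. They were divided by what is generally known of their source, not by these libraries. Ccl1, Ccl3, Ccl4, Ccl5 and Xcl1 (5 genes) are known as products of activated T cells, and Ccl17, Ccl22, Cxcl9 and Cxcl10 (4 genes) as products of antigen-presenting cells. The division is not strict, since B cells and dendritic cells also make Ccl3, Ccl4 and Ccl5, and T cells can make Ccl22. The 2 libraries labelled TEaWT (WT) and the 2 labelled TEaMthfd2 KO (KO) came, per the labels, from CD4+ T cells of 8-week-old TEa mice, purified on magnetic columns by positive selection. TEa cells carry a transgenic T cell receptor for an alloantigen peptide. Both groups were kept for 3 days with mitomycin-treated antigen-presenting cells from spleens of mice of the cross F1 (BALB/c x C57BL/6). The comparison asks what changes when Mthfd2, which works in mitochondria on folate-bound one-carbon units, is lost. The labels give neither the way Mthfd2 was deleted nor the cells in which it was deleted, and no label says whether replicates were separate mice or separate cultures. P-values then reflect only how these libraries vary, and that variation could be technical.

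Chemokines are small secreted proteins that draw cells along a gradient by binding G protein-coupled receptors. They are named after the spacing of the first cysteines of the mature protein, which gives the CC, CXC and C families. T cells release Ccl3, Ccl4 and Xcl1 soon after their receptor is engaged, and Xcl1 draws the dendritic cells that cross-present antigen. Mature dendritic cells and B cells release Ccl17 and Ccl22 to attract T cells that carry Ccr4, and interferon gamma from T cells makes neighbouring cells produce Cxcl9 and Cxcl10, which call in T cells that carry Cxcr3.

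The libraries held between 14191401 and 15955863 counts. Mthfd2 itself had 4581 and 4149 counts in the WT pair and 3146 and 3510 in the KO pair, and its log2 fold change of -0.24 ± 0.14 did not pass the test (edgeR quasi-likelihood, Benjamini-Hochberg adjusted p = 0.324). Gene-level counts do not show whether single exons were missing. Cd8a stood at between 3.10 and 4.00 times the CPM of Cd4 in each library, against the label of CD4+ cells, and Trbv19, which the TEa receptor uses, had between 6.37% and 8.39% of Trbv counts. H2-Ea, an MHC class II gene that BALB/c mice express and C57BL/6 mice do not, had 2 counts in WT replicate 1 and 0 in the other libraries, against the label of F1 antigen-presenting cells, and whether the counting covered this gene fully was not tested. WT replicate 1 stood apart: the coordinates on the first principal component (69.0% of the variance) were -65.1 and -19.6 for the WT pair and 43.8 and 40.9 for the KO pair. Values without WT replicate 1 are therefore also given for the chemokines that it moved most. Of 7 MHC class II genes, 6 were called lower in the KO pair (edgeR, adjusted p under 0.05) and 7 had a negative log2 fold change. Their summed CPM ranged from 2325 to 3900 in the WT pair and from 1068 to 1232 in the KO pair. Of 7 B cell genes, 3 were called lower and 7 had a negative log2 fold change, with sums of 611 to 996 against 299.5 to 363 CPM. Of 10 T cell genes, 3 were called higher and 2 had a negative log2 fold change, with sums of 2273 to 2441 against 3238 to 3337 CPM. Of all genes tested, 1.56% were called lower, 2.39% were called higher and 50.2% had a negative log2 fold change. In bulk libraries, fewer cells of a type and less RNA per cell cannot be told apart.

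All 9 chemokine mRNAs had a negative log2 fold change (KO over WT), 2 of them passed the test and 0 were called higher. The 2 that fell were Ccl22 and Cxcl10, both known as products of antigen-presenting cells. A share of 1.56% of the 12752 genes tested was called lower (edgeR, adjusted p under 0.05) and 50.2% had a negative log2 fold change. At an unadjusted p under 0.05, 7 of the 9 were lower, against 12.7% of all genes tested. Without WT replicate 1 this held for 5 of the 9, of which 2 are products of antigen-presenting cells, against 8.52% of all genes then tested. Both KO libraries lay below both WT libraries for 8 of the 9, the exception being Ccl1, and 30.1% of all genes tested had that order. The median log2 fold change was -1.63 over the 9 genes, -1.52 over the 5 T cell products and -1.85 over the 4 products of antigen-presenting cells, beside -0.0026 over all genes tested. Ccl17 passed the count filter only through the WT pair, which favours a negative value in the counts and medians that include it. Of the T cell products 0 of 5 passed the test and 3 had an unadjusted p under 0.05, with 0 lower by limma-voom and 3 lower by DESeq2 (Ccl3, Ccl4 and Xcl1). Of the 12752 genes tested, limma-voom called 217 lower and DESeq2 called 783 lower, beside 199 by edgeR. Whether the classes differ in their response was not tested.

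**Figure D1:**
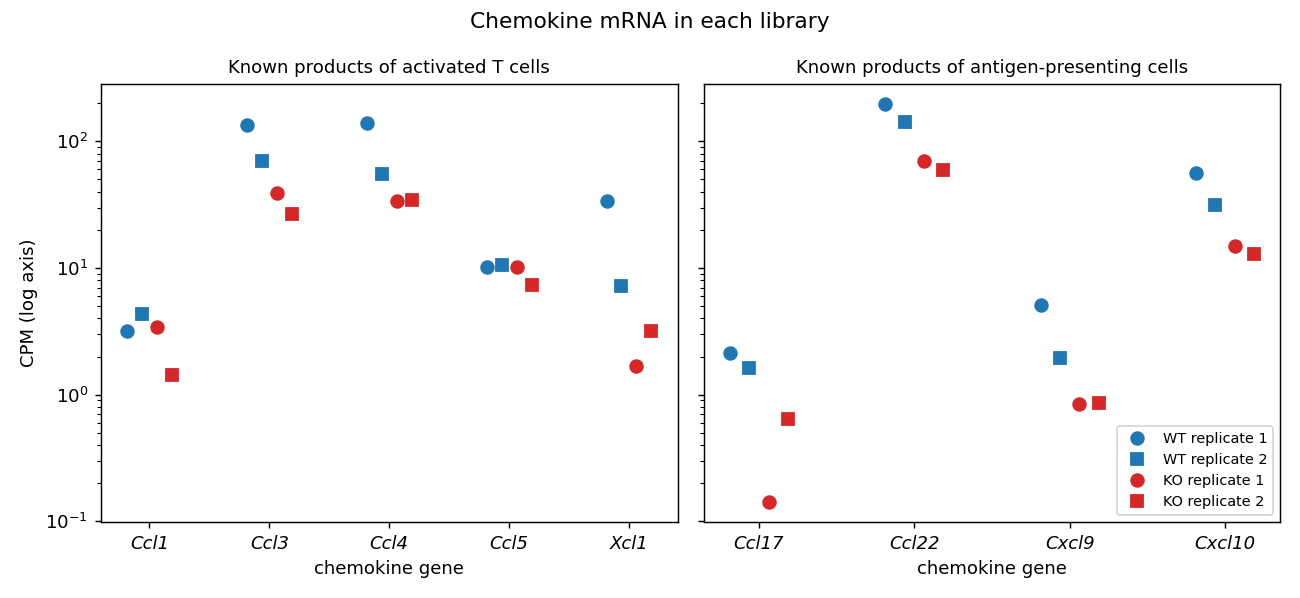
CPM (log axis) of each chemokine gene in each library, WT in blue and KO in red, with circles for replicate 1 and squares for replicate 2. Both red points lie below both blue points for 8 of the 9 genes, by the smallest margin for Ccl5, and the blue points of Xcl1 lie farthest apart (33.8 and 7.17 CPM).

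Ccl22, which attracts T cells through Ccr4, was the most highly counted of the 9. Its counts were 3253 and 2092 in the WT pair and 983 and 832 in the KO pair, or 199 and 141 against 69.5 and 59.6 CPM (counts relative to the library total after scaling for composition). The KO libraries lay close together, well under the lower WT library. The mean was 170.1 ± 40.5 CPM in the WT pair and 64.6 ± 6.97 CPM in the KO pair (SD, n = 2 each), a log2 fold change of -1.40 ± 0.21 (SE; edgeR, adjusted p = 0.0357). The gene lies on the plus strand of chromosome 8 (GRCm38, 94745590 to 94751699, ENSMUSG00000031779.3). Ccl17, its neighbour on chromosome 8 (94810453 to 94812036) and the other ligand of Ccr4, was far scarcer. It had 35 and 24 counts in the WT pair and 2 and 9 in the KO pair, that is 2.14 and 1.62 against 0.141 and 0.645 CPM. Its log2 fold change of -2.24 ± 0.79 did not pass the test (edgeR, adjusted p = 0.143), and KO replicate 1 lay at -2.19 relative to KO replicate 2 on the log2 scale.

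Cxcl10, a ligand of Cxcr3 that interferons induce strongly, had 929 and 464 counts in the WT pair and 211 and 181 in the KO pair. In CPM these were 56.7 and 31.4 against 14.9 and 13.0, a wider gap between the WT libraries than between the KO libraries, and the groups did not overlap. The mean was 44.1 ± 17.9 CPM in the WT pair and 13.9 ± 1.37 CPM in the KO pair (SD, n = 2 each), and the log2 fold change was -1.66 ± 0.30 (edgeR, adjusted p = 0.0415). Cxcl10 is a minus-strand gene of chromosome 5 (GRCm38, 92346638 to 92348889, ENSMUSG00000034855.13), where exons of Art3 overlap it on the other strand. Art3 had at most 4 counts in a library. Cxcl9, the neighbouring ligand of Cxcr3 (chromosome 5, 92321347 to 92328079), had 84 and 29 counts in the WT pair and 12 in each KO library. Its level was 5.13 and 1.96 CPM in the WT pair against 0.848 and 0.860 CPM in the KO pair. The KO libraries were alike and the WT libraries were not, and the log2 fold change of -2.05 ± 0.64 did not pass the test (edgeR, adjusted p = 0.112). Without WT replicate 1 it was -1.19 ± 0.76.

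Without KO replicate 1 the log2 fold change was -1.51 for Ccl22 and -1.76 for Cxcl10, and without KO replicate 2 it was -1.29 and -1.56 (edgeR). Both calls were lost in each of these fits, where the spread is estimated from the WT pair alone. The cause of the loss was not tested. Both calls held without WT replicate 1 (adjusted p = 0.0218 and 0.0441), where the log2 fold changes were -1.13 and -1.16, while the call of Cxcl10 was lost with upper quartile factors (0.0512) and by limma-voom (0.0515).

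The sequences upstream of the 2 chemokines that fell, and of Cxcl9 beside Cxcl10, are shown because Cxcl9 and Cxcl10 were both lower in each KO library than in each WT library and interferon acts on both genes. They come from RefSeq (GRCm38.p6), run from 5′ to 3′ on the strand of the gene, and stop before the first transcript start annotated for the gene, which shortens the Ccl22 window to 156 bases. Capitals mark matches to the motifs searched. Positions are chr5:92348890-92349139 (minus strand) for Cxcl10, chr5:92328080-92328329 (minus strand) for Cxcl9 and chr8:94745434-94745589 (plus strand) for Ccl22.
Cxcl10: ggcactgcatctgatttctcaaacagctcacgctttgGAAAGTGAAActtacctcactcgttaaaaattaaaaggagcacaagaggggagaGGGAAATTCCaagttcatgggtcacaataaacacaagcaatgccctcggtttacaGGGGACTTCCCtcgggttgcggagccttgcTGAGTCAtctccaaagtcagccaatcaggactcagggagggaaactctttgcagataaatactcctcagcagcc
Cxcl9: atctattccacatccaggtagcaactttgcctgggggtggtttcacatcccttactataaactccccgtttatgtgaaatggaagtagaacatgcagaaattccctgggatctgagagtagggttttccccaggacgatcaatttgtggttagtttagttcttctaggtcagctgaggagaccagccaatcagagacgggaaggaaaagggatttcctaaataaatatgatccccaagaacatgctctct
Ccl22: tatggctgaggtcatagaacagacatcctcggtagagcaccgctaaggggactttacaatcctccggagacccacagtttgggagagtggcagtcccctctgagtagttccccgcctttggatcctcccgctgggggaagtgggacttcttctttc
The motifs were searched on both strands in the 250 bases before the RefSeq start. They were the core of the interferon-stimulated response element (GAAA, any 2 bases, GAAA), the gamma-activated site (TTCNNNGAA), the AP-1 site (TGANTCA) and the kappaB consensus. Of 32851 promoters of that length, 2.98% held the response element core, 7.02% the gamma-activated site, 6.75% the AP-1 site and 7.25% the kappaB consensus. The Cxcl10 window held GAAAGTGAAA starting 213 bases before the start, TGAGTCA at 74 bases, and kappaB matches starting at 159, 104 and 103 bases, of which the last 2 overlap each other. The windows of Cxcl9, Ccl22, Xcl1 and Ccl3 held none of the 4 motifs as spelled. The Ccl17 window held 1 gamma-activated site at 99 bases, and the Ccl1 window held overlapping kappaB matches at 196 and 195 bases. Promoters of 7 of the 9 genes were matched. These matches describe the sequence and say nothing of binding.

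Among the T cell products, Ccl3 and Ccl4, the macrophage inflammatory proteins, were the most abundant. Ccl3 had 2196 and 1041 counts in the WT pair and 557 and 371 in the KO pair, or 134 and 70.4 against 39.4 and 26.6 CPM. The mean was 102 ± 45.1 CPM in the WT pair and 33.0 ± 9.04 CPM in the KO pair (SD, n = 2 each). The groups did not overlap, and the log2 fold change of -1.63 ± 0.34 lay just outside the threshold (edgeR, adjusted p = 0.0506). It was called under 5 of the 12 alternatives run, among them the stricter filter on low counts (edgeR, adjusted p = 0.0488) and DESeq2. Without WT replicate 1 the log2 fold change of Ccl3 was -1.09 ± 0.24.

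Ccl4 had 2296 and 823 counts in the WT pair and 479 and 480 in the KO pair. In CPM these were 140.2 and 55.6 against 33.9 and 34.4, so the KO libraries were nearly equal while WT replicate 1 stood far above WT replicate 2. The mean was 97.9 ± 59.8 CPM in the WT pair and 34.1 ± 0.383 CPM in the KO pair, and the log2 fold change was -1.52 ± 0.40 (SD with n = 2 each; edgeR, adjusted p = 0.0793). Without WT replicate 1 it was -0.70. Ccl3 (chromosome 11, 83647844 to 83649355, minus strand) and Ccl4 (83662584 to 83664683, plus strand) are close neighbours. The RefSeq record of Ccl4, predicted models included, starts at 83648624, inside Ccl3 on the opposite strand. If the authors counted on such a model, some reads could not be told apart between the 2 genes.

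Xcl1, lymphotactin, the ligand of Xcr1, had the most negative log2 fold change of the 9. It had 553 and 106 counts in the WT pair and 24 and 44 in the KO pair, which are 33.8 and 7.17 CPM against 1.70 and 3.15 CPM. Both KO libraries were under both WT libraries, but the WT libraries differed 4.71-fold from each other. The mean was 20.5 ± 18.8 CPM in the WT pair and 2.43 ± 1.03 CPM in the KO pair, and the log2 fold change of -3.08 ± 0.75 did not pass the test (SD with n = 2 each; edgeR, adjusted p = 0.0670). Without WT replicate 1 it was -1.56. Xcl1 lies on the minus strand of chromosome 1 (164931644 to 164935527), where exons of Gm20743 overlap it on the other strand, and Gm20743 had 49 and 2 counts in the WT pair and 10 and 1 in the KO pair.

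Ccl5 (RANTES), which memory and cytotoxic T cells store and release, showed the smallest difference. It had 167 and 156 counts in the WT pair and 144 and 102 in the KO pair, or 10.2 and 10.5 against 10.2 and 7.31 CPM. WT replicate 1 and KO replicate 1 were nearly the same. The log2 fold change was -0.25 ± 0.29 (edgeR, adjusted p = 0.632), with a 95% interval from -0.93 to 0.44. Ccl1, the ligand of Ccr8, had 52 and 64 counts in the WT pair and 48 and 20 in the KO pair, or 3.18 and 4.33 against 3.39 and 1.43 CPM. Its groups overlapped, and the log2 fold change of -0.63 ± 0.54 (edgeR, adjusted p = 0.499) had a 95% interval from -1.91 to 0.65. These intervals do not show that either gene was unchanged. Ccl5 lies at 83525778 to 83530518 on chromosome 11. The coding transcript of Ccl1 linked to RefSeq lies at 82176666 to 82179812 on the same chromosome.

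For several of these genes the WT libraries differed from each other by more than WT replicate 2 differed from the KO mean. On the log2 CPM scale WT replicate 1 exceeded WT replicate 2 by 2.24 for Xcl1, 1.39 for Cxcl9 and 1.33 for Ccl4. The mean KO level lay at -1.56, -1.20 and -0.70 relative to WT replicate 2 for the same genes, which is the smaller distance in each case. For Ccl22 the WT libraries differed by 0.49 and the KO mean lay at -1.13 relative to WT replicate 2, and for Ccl17 these were 0.40 and -2.04. Ccl3 (0.93 and -1.09) and Cxcl10 (0.86 and -1.17) lay between. Genes of other cells also differed between the WT libraries: the MHC class II sum of WT replicate 1 was 3900 CPM and that of WT replicate 2 was 2325 CPM.

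**Figure D2:**
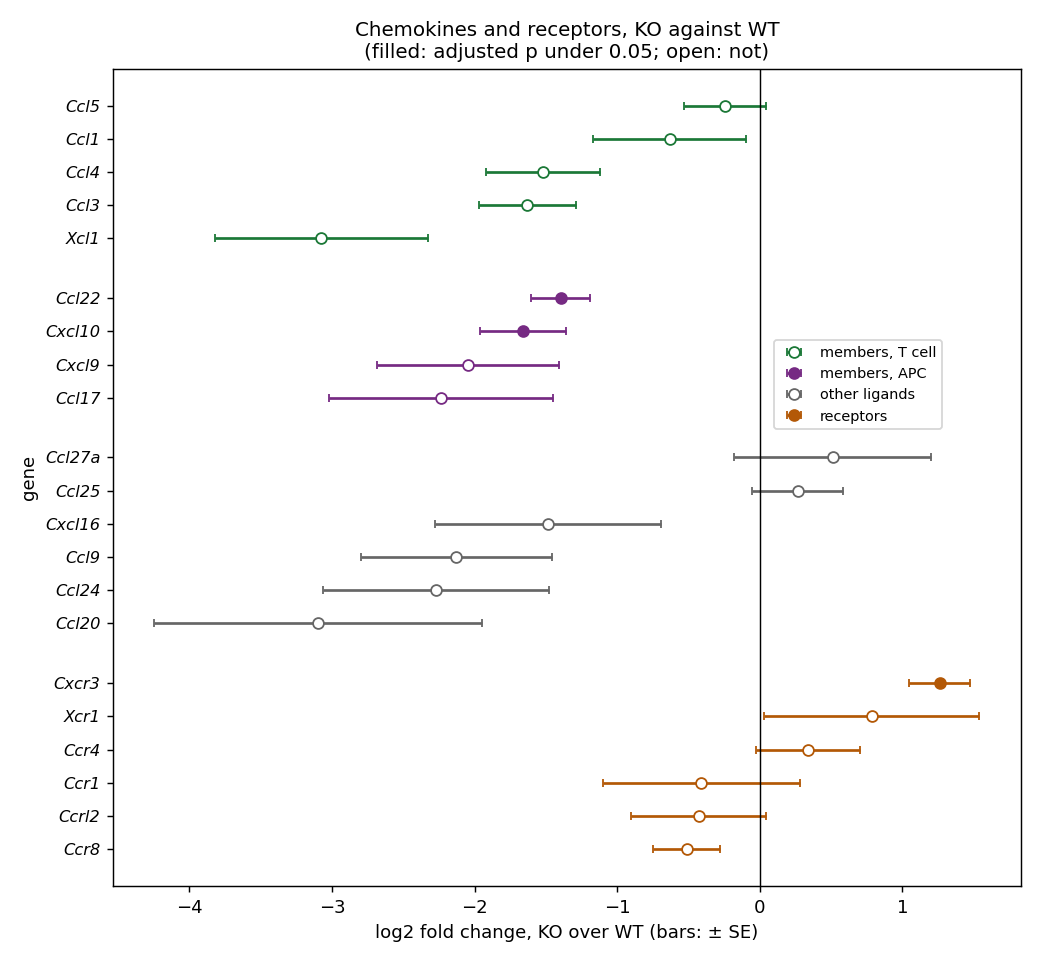
Log2 fold change (KO over WT) with its SE for the 9 chemokines, the 6 other chemokine ligands and the 6 receptors that could be tested; filled points passed the edgeR test. All 9 chemokines lie left of 0, with Ccl22 and Cxcl10 filled, and the filled receptor is Cxcr3 at 1.26.

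Levels were compared between genes as CPM per kilobase of the transcript linked to RefSeq. By the mean over the 4 libraries the order was Ccl4 (100.1), Ccl3 (88.3), Ccl22 (52.9), Cxcl10 (26.5), Xcl1 (21.9), Ccl5 (18.0), Ccl1 (6.00), Ccl17 (2.21) and Cxcl9 (0.762 CPM per kilobase). Ccl22 ranked 3 in every library. Ccl3 and Ccl4 changed places: Ccl4 led in WT replicate 1 (212 against 175) and KO replicate 2 (52.1 against 34.7), Ccl3 led in WT replicate 2 (91.9 against 84.3), and they were level in KO replicate 1 (51.4 and 51.3). Xcl1 ranked 4 in WT replicate 1, 6 in WT replicate 2 and KO replicate 2 and 7 in KO replicate 1, so its place against Cxcl10 and Ccl5 is not fixed by these libraries. Ccl5 ranked 4 in both KO libraries and 6 and 5 in the WT libraries.

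**Figure D3:**
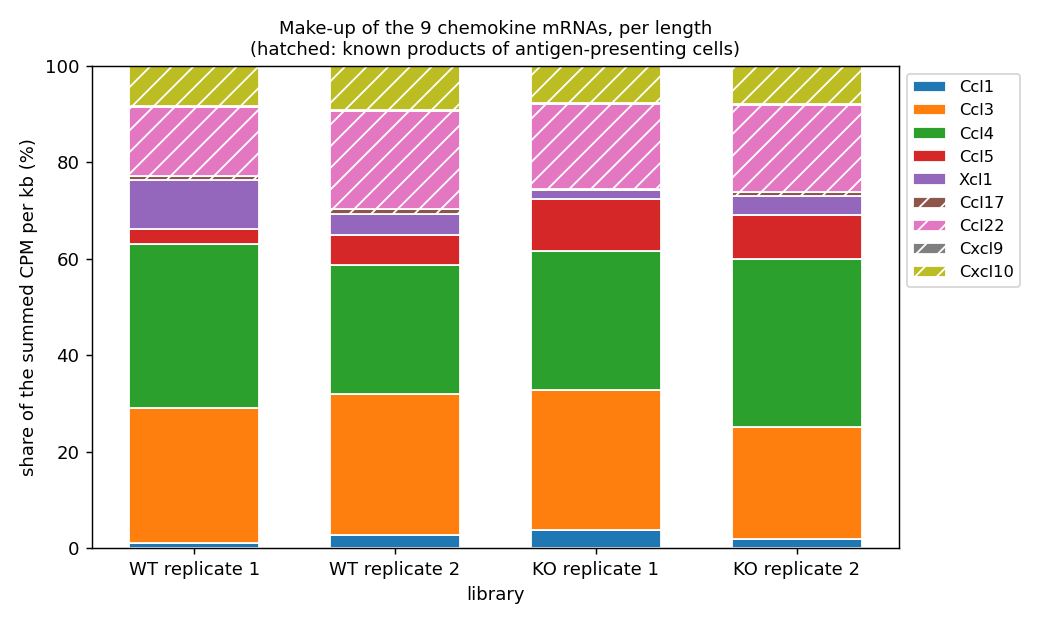
Share of each gene in the summed CPM per kilobase of the 9 chemokines, 1 bar per library, with the known products of antigen-presenting cells hatched. Ccl3, Ccl4, Ccl22 and Cxcl10 make up between 83.3% and 85.4% of each bar, and the Ccl5 share is 3.07% and 6.30% in the WT pair and 10.8% and 9.18% in the KO pair.

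By these per-length levels the 5 T cell products held 76.4% and 69.4% of the summed level in the WT pair and 74.3% and 73.1% in the KO pair, so the KO values lay inside the WT range. Cxcl10 held 8.30% and 9.12% in the WT pair and 7.69% and 7.92% in the KO pair. Ccl22 held 14.3% and 20.3% in the WT pair and 17.7% and 18.0% in the KO pair, and here too the KO values lay inside the WT range. Ccl5 took a larger share in both KO libraries than in either WT library. Xcl1 took 10.3% and 4.36% in the WT pair against 1.83% and 4.03% in the KO pair.

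MHC class II and B cell sums were lower in the KO pair, as the chemokines were, so each chemokine was also expressed as a percentage of the summed CPM of the 7 MHC class II genes, of the 7 B cell genes and of the 10 T cell genes, a comparison chosen after the values were seen. Ccl22 stood at 5.10% and 6.08% of the MHC class II sum in the WT pair and at 5.64% and 5.59% in the KO pair. On that scale the WT and KO libraries overlapped. Ccl3 stood at 3.44% and 3.03% in the WT pair and 3.20% and 2.49% in the KO pair. Ccl4 stood at 3.60% and 2.39% in the WT pair and 2.75% and 3.22% in the KO pair, and Ccl1 and Ccl17 overlapped as well, so 5 of the 9 genes overlapped between the groups. The other 4 did not overlap, beside 91.3% of all genes tested, most of which were higher in the KO pair on this scale: both KO libraries lay below both WT libraries for 3 of the 9 and for 1.56% of all genes tested. Cxcl10 stood at 1.46% and 1.35% in the WT pair and 1.21% and 1.22% in the KO pair, Cxcl9 at 0.132% and 0.0843% against 0.0689% and 0.0806%, and Xcl1 at 0.866% and 0.308% against 0.138% and 0.295%. Ccl5 lay the other way, at 0.262% and 0.454% in the WT pair and 0.826% and 0.685% in the KO pair. As a percentage of the B cell sum, 3 of the 9 genes (Ccl1, Ccl4 and Ccl17) overlapped and 6 did not, beside 88.7% of all genes tested. Both KO libraries lay below both WT libraries for 5 of the 9 and for 1.94% of all genes tested. Ccl22 stood there at 19.94% and 23.1% in the WT pair and 19.1% and 19.91% in the KO pair, so the groups were separated by a narrow margin, and Cxcl10 stood at 5.70% and 5.13% against 4.10% and 4.33%. Ccl5 was again higher in the KO pair. As a percentage of the T cell sum, which was higher in the KO pair, 9 of 9 genes were lower in both KO libraries than in both WT libraries, an order that 64.2% of all genes tested had on that scale. Ccl3, for example, stood at 5.90% and 2.88% in the WT pair and 1.22% and 0.797% in the KO pair, and Ccl5 at 0.449% and 0.432% against 0.314% and 0.219%.

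**Figure D4:**
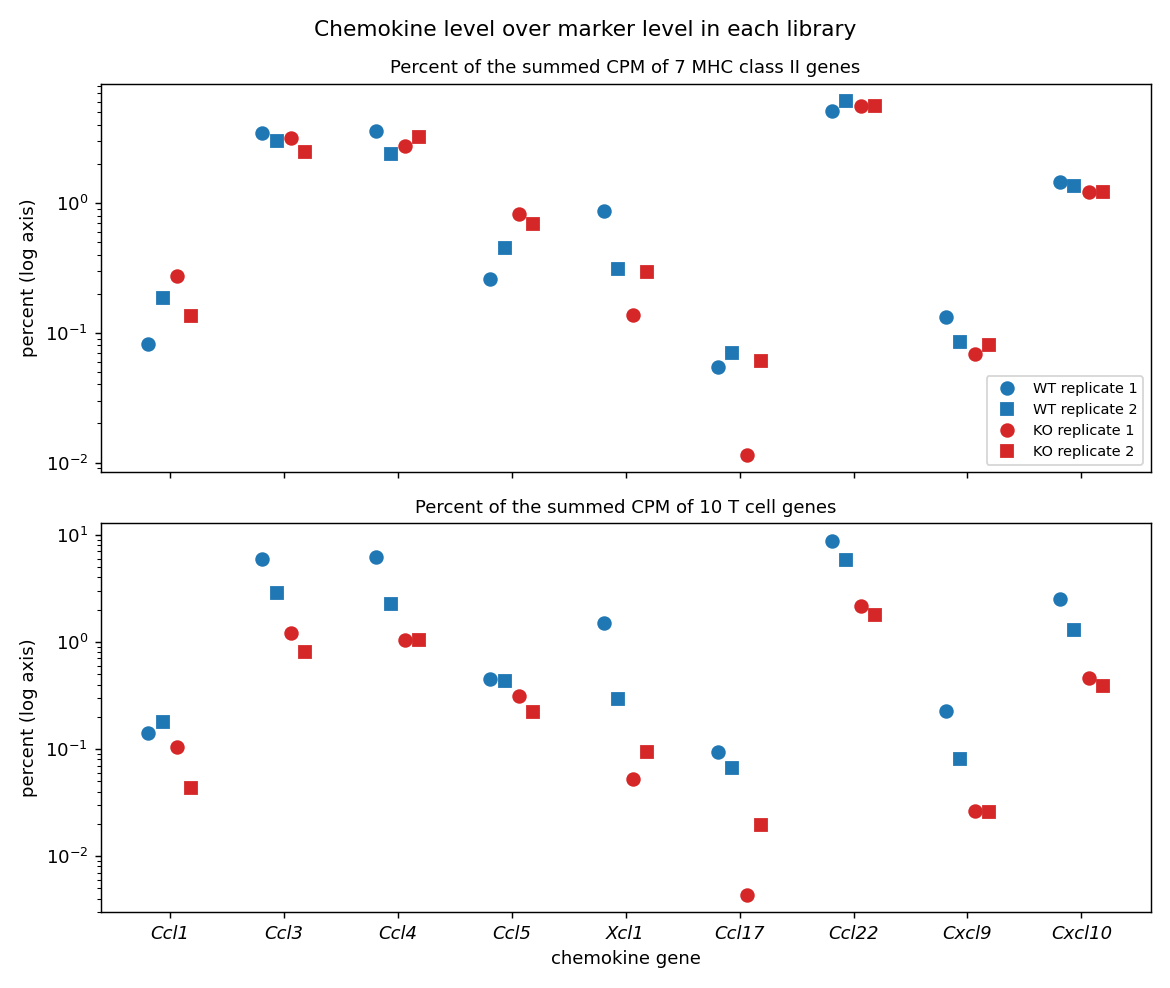
Each chemokine as a percentage of the summed CPM of 7 MHC class II genes (top) and of 10 T cell genes (bottom) in each library, on log axes. Over MHC class II the groups overlap for 5 of 9 genes, among them Ccl22 (5.10% to 6.08% in the WT pair, 5.59% and 5.64% in KO), and over T cell genes for 0 of 9. Of all genes tested, 91.3% do not overlap over MHC class II, and over T cell genes 64.2% have both KO libraries below both WT libraries.

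The markers show which other cells the libraries held. B cell genes were well covered, with Ms4a1 (CD20) between 1116 and 5102 counts. Genes of mature dendritic cells are shared in part by B cells and T cells. Of the 7 tested, 1 was called lower (Relb, -1.31 ± 0.24) and 7 had a negative log2 fold change. The shares over all genes tested, for this and the following lists, were 1.56% called lower, 2.39% called higher and 50.2% negative. The summed CPM of the mature dendritic cell list was 680 to 1272 in the WT pair and 510 to 575 in the KO pair. Ccr7 (-0.21 ± 0.34) made up most of the KO sum, at 526 and 235 CPM in the WT pair and 338 and 321 CPM in the KO pair. Fscn1, an actin-bundling protein of mature dendritic cells, stood at 194 and 99.9 CPM in the WT pair and 53.5 and 27.7 CPM in the KO pair (edgeR, adjusted p = 0.0539). Markers that define resting dendritic cells were scarce: Clec9a, Cd209a and Clec10a had at most 2 counts in a library, while Zbtb46 had between 66 and 427 counts. Of the dendritic cell list, 5 of 9 genes were tested and 0 were called. The 3 with a negative log2 fold change were Zbtb46 (-1.69 ± 0.44), Flt3 (-1.55 ± 0.54) and Batf3 (-1.19 ± 0.44). For these 3, both KO libraries lay below both WT libraries, an order that 30.1% of all genes tested had. Itgax (0.45 ± 0.54) and Xcr1 (0.78 ± 0.75) had positive log2 fold changes. Siglech, not tested, had 58 and 10 counts in the WT pair and 0 in each KO library. The list's sum was 33.2 to 46.6 CPM in the WT pair and 12.8 to 20.8 CPM in the KO pair. Of 11 macrophage and monocyte genes, C1qa and Fcgr1 were at 0 in all libraries, Csf1r had at most 6 counts and Cd14 at most 2. Of the 4 tested, 0 were called and 4 had a negative log2 fold change. These were Lyz2 (-3.42 ± 0.79), Adgre1 (-1.14 ± 1.19), Cd68 (-0.24 ± 0.33) and Ly6c2 (-0.083 ± 0.19). Lyz2 had 77 and 23 counts in the WT pair and 4 in each KO library. A count of 0 allows up to 3 counts in a library. Ly6c2, which T cells also express, made up most of the macrophage and monocyte sum, which was 99.2 to 135 CPM in the WT pair and 99.8 to 113 CPM in the KO pair. The 5 neutrophil genes had sums of 1.08 to 10.2 CPM in the WT pair and 0.212 to 0.860 CPM in the KO pair. The NK cell genes mark cells that also make Ccl3, Ccl4, Ccl5 and Xcl1. Of the 4 tested, 1 was called higher (Klrd1, also found on cytotoxic T cells). Ncr1 had 45 and 40 counts in the WT pair and 11 and 4 in the KO pair. The NK cell list's sum was 28.7 to 29.4 CPM in the WT pair and 59.7 to 118 CPM in the KO pair. Most of the KO sum came from Klrd1 (55.4 and 33.8 CPM) and Gzma (60.5 and 22.7 CPM), so it need not follow NK cells. Of 2 erythroid genes tested, 2 had a negative log2 fold change and 1 was called lower. The called gene was Alas2, an enzyme of heme synthesis, with 109 and 46 counts in the WT pair and 9 in each KO library (edgeR, -2.92 ± 0.59, adjusted p = 0.0482). The erythroid sums were 6.49 to 22.7 CPM in the WT pair and 0.645 to 1.70 CPM in the KO pair. The platelet list (1 of 3 tested) and the stroma and endothelium list (1 of 5 tested) had 0 genes called, and 0 of 4 basophil and mast cell genes were tested. The part of any of these cells in the chemokine levels was not tested beyond the percentages above.

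Of the 29 other chemokine ligands listed, 6 had enough reads to be tested, 12 were at 0 in all libraries, and 0 passed the edgeR test. At an unadjusted p under 0.05, Ccl9, Ccl20 and Ccl24 were lower, and without WT replicate 1 none of the 3 was (edgeR, unadjusted p = 0.179, 0.171 and 0.106). Ccl9, a macrophage inflammatory protein that binds Ccr1, stood at 7.57 and 2.43 CPM in the WT pair and 0.848 and 1.43 CPM in the KO pair (log2 fold change -2.13 ± 0.67, and -1.08 without WT replicate 1). Ccl24 (eotaxin-2) had 35 and 20 counts in the WT pair and 8 and 2 in the KO pair, and Ccl20, the ligand of Ccr6, had 46 and 14 against 6 and 0 (log2 fold change -3.10 ± 1.15, and -2.10 without WT replicate 1). Cxcl16, a membrane-bound chemokine of antigen-presenting cells, had 97 and 77 counts in the WT pair and 50 and 6 in the KO pair. Ccl25 (0.27 ± 0.32) and Ccl27a (0.51 ± 0.69) had positive log2 fold changes. The median over the 6 was -1.81. Ccl20 and Ccl24 passed the count filter only through the WT pair, which favours negative values, so this median was not set against all genes. Cxcl11, the remaining ligand of Cxcr3, had at most 14 counts in a library. Ccl2, Ccl7, Ccl8 and Ccl12, the monocyte chemoattractants, had 0 counts in all 4 libraries.

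Among the receptors of these chemokines, 6 of the 9 listed were tested, 1 rose and 0 fell. Cxcr3, which binds Cxcl9 and Cxcl10, had 296 and 386 counts in the WT pair and 765 and 721 in the KO pair, or 18.1 and 26.1 against 54.1 and 51.7 CPM (edgeR, 1.26 ± 0.21, adjusted p = 0.0400). This was the opposite direction to its ligand Cxcl10. A share of 2.39% of all genes tested was called higher. Cxcr3 was called in the same libraries in which T cell genes had a median of 0.59. Ccr4, the receptor of Ccl17 and Ccl22, stood at 48.4 and 114 CPM in the WT pair and 103 CPM in each KO library (0.34 ± 0.36), so WT replicate 1 alone was low. Without it the log2 fold change was -0.15. Ccr8, the receptor of Ccl1, stood at 29.2 and 44.1 CPM against 25.0 and 26.4 CPM (edgeR, -0.51 ± 0.23, adjusted p = 0.224). Xcr1, the receptor of Xcl1, had 17 and 15 counts in the WT pair and 40 and 10 in the KO pair. Ccr1 had between 8 and 26 counts, Ccr3 at most 8, and the decoy receptors Ackr1 and Ackr2 had 0. Ccrl2, an atypical receptor, stood between 3.04 and 6.72 CPM.

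Of 11 genes known to induce these chemokines, 3 fell, 2 rose and 6 did not pass the test. A negative log2 fold change was found for 8 of the 11, beside 50.2% of all genes tested. Of all genes tested, 1.56% were called lower and 2.39% higher. The 3 that fell were Ifng, Tnf and Ifngr2. Ifng, the inducer of Cxcl9 and Cxcl10, had 3516 and 4149 counts in the WT pair and 682 and 569 in the KO pair (edgeR, adjusted p = 0.0176). In CPM, Ifng stood at 215 and 280 in the WT pair and 48.2 and 40.8 in the KO pair. Its part in the chemokine levels was not tested. Ifngr2, a chain of the interferon gamma receptor, stood at 47.0 and 32.2 CPM against 16.6 and 15.2 CPM (-1.32 ± 0.24), while the other chain, Ifngr1, rose from 43.6 and 43.7 CPM to 101 and 75.1 CPM (edgeR, 1.01 ± 0.19, adjusted p = 0.0438). Klf13, a transcription factor that drives late Ccl5 expression in T cells, rose from 111 and 134 CPM to 225 and 220.4 CPM (edgeR, 0.87 ± 0.16, adjusted p = 0.0414). Irf1 (edgeR, -0.75 ± 0.24, adjusted p = 0.121), a transcription factor that interferons induce, did not pass. Without WT replicate 1 the calls of Ifngr2 (edgeR, adjusted p = 0.0564), Ifngr1 (0.0555) and Klf13 (0.0623) were lost, and that of Ifngr1 also with upper quartile factors (0.0530) and with library size only (0.0539). Without KO replicate 1 or KO replicate 2 these calls and those of Cxcr3, Ifng (edgeR, adjusted p = 0.270 and 0.113) and Tnf (0.297 and 0.175) were lost as well. Il4 and Il13, which induce Ccl17 and Ccl22, had log2 fold changes of -0.13 ± 0.65 and 0.59 ± 0.55.

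The genes whose pattern over the 4 libraries was most like that of the leading member of each class were found by the root mean square difference of mean-centred log2 CPM, among genes with a mean of at least 10 CPM. For Ccl3 they were Mreg (0.0320), Fam43a (0.0365) and Ctsh (0.0481). For Ccl22 they were Cd22 (0.0576), a B cell receptor for sialic acid, Ifngr2 (0.0597) and Mzb1 (0.0754), a protein of antibody-secreting and marginal zone B cells. Cd22 stood at 181 and 131 CPM in the WT pair and 68.9 and 53.2 CPM in the KO pair, and Mreg (melanoregulin) at 75.1 and 39.7 CPM against 21.1 and 15.1 CPM. With 4 libraries, many genes can lie this close.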

How the data were processed

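RNA-seq libraries of 4 samples (2 WT, 2 KO) were analysed from 1 deposited table per library. The values deposited by the authors are raw read counts, whole numbers over 31748 gene symbols. The submitters' processing notes name DESeq2 1.30.1, R 4.0.4, featureCounts, Subread 2.0.1 and mm10. Aligner, annotation, strand setting and handling of multi-mapping reads: not given in the sources used here. Neither pair of replicates looked like 1 library deposited again (chi-square per degree of freedom 40.3 and 16.1).

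Counts were tested in R 4.3.3 with edgeR 4.0.16: filterByExpr (minimum count 10, minimum total 15; 12752 genes kept), TMM scaling (factors between 0.968 and 1.027) and the quasi-likelihood test over all 4 libraries with no covariate, adjusted by Benjamini-Hochberg over all genes tested and called at an adjusted p under 0.05. SE is the log2 fold change over the root of the F statistic. Alternatives used limma-voom (limma 3.58.1), DESeq2 1.42.0, other scalings and filters, a replicate block and each library left out. The fit was tested on simulated data. Positions and transcript lengths come from GENCODE M21 (GRCm38, the assembly called mm10), counted from 1, and promoters from RefSeq. Neighbour genes were the 3 closest to the member of each class with the highest mean CPM. Other ligands, receptors and inducers were named by lists. Some genes were taken out of the receptor, inducer, B cell and macrophage lists and are not reported here. Of the markers listed, Trac and Hbb-bs were not matched by symbol. The members and lists were chosen with earlier results of these data known.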

Additional observations from a re-analysis of the deposited data

How the results depend on the processing

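All 9 chemokine log2 fold changes stayed negative under the 12 alternatives run, and Ccl1, Ccl5 and Ccl17 were called under none of them. Ccl22 was called under 10 of the 12 and Cxcl10 under 8. The 2 chemokines called lower became 1 with upper quartile factors (Ccl22) and 1 by limma-voom (Ccl22), 5 with no filter on low counts and 5 by DESeq2 (Ccl3, Ccl4, Xcl1, Ccl22 and Cxcl10 in both), and 4 with the replicate number as a block. Between 0 and 6 were called when a library was left out. By edgeR, 0 were called without KO replicate 1, 0 without KO replicate 2 and 6 without WT replicate 2. Over all genes, 305 higher and 199 lower calls became 737 and 682 with no filter and 860 and 783 by DESeq2, and 122 were lower with upper quartile factors. With a library left out, between 0 and 1432 genes were higher and between 0 and 1127 lower. The lowest counts came without KO replicate 1 and without KO replicate 2. The highest came without WT replicate 2, where 13333 genes were tested. With 1 library left in a group, its spread is assumed to be that of the other group. The block gave 488 higher and 401 lower genes. No label says whether libraries of the same replicate number were paired. Libraries of the same number deviated together with a correlation of 0.04, which cannot settle this with 1 deviation per pair. The cause of these changes was not tested.

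Log2 fold changes that were not called changed sign when a library was left out, with ranges of -0.15 to 1.09 for Ccr4, -0.88 to 0.26 for Ccrl2, -0.34 to 0.015 for Stat6, -1.13 to 0.49 for Il4, -0.11 to 0.57 for Ccl25, -0.51 to 1.46 for Xcr1, -0.23 to 1.43 for Il13 and -1.47 to 0.19 for Ccr1. Low counts limit Ccl17, Cxcl9 and Ccl1, which had at most 35, 84 and 64 counts in a library.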
